A study of Homo sapiens with 36 samples.

Results

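Matrix metalloproteinases (MMPs) are zinc-dependent endopeptidases that cut collagens, laminins and other extracellular matrix proteins, and many are made as inactive proenzymes. The tissue inhibitors of metalloproteinases (TIMPs) bind the active enzymes and block them. In the mammary gland both families are known for their part in branching, in involution and in tumour invasion. The members described here were the 7 MMP genes MMP1, MMP2, MMP3, MMP7, MMP9, MMP10 and MMP14 and the 3 inhibitor genes TIMP1, TIMP2 and TIMP3. They were chosen by the gene symbol in the probe annotation, with every probe of a gene, which gave 12 probes for 10 genes among 47231 probes for 20046 named genes. MMP7 and TIMP2 had 2 probes each. Of the 10 genes, 9 had a probe above background, that is a detection p under 0.01, on each of the 3 arrays of some group, and these entered the tests. MMP2 did not, and its values are described below without a test.

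The study measured gene expression on 36 Illumina BeadChip arrays of MCF-10A, a human breast epithelial line that is not transformed, in 12 groups of 3 labelled biological replicates. Of these groups, 8 were stable lines made with lentiviral short hairpin RNAs against DNA damage kinases and are called the kinase lines here. ATM was targeted in shATM-1 and shATM-3, ATR by the hairpins of shATR-3 and shATR-4, CHK1 in the lines shCHK1-3 and shCHK1-4, and CHK2 in shCHK2-1 and shCHK2-2. Another 2 were lines with hairpins against the repair adaptor 53BP1 (sh53BP1-1, sh53BP1-2), 1 line carried a scrambled hairpin (shControl), and 1 group was untransfected wild type cells. Cells of every group were plated at 200000 per 10 cm dish and collected 48 hours later. Each hairpin is represented by 1 selected line, and the sources used here do not say whether a line is a clone. The effect of a hairpin and the history of its line cannot be told apart, and p-values measure the spread between cultures of the same line. Values are given as log2 signal after background correction and quantile normalization, and the level of a probe is compared only with itself across groups.

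The mean signal of an array was 460 to 677 intensity units, and 33.5% to 38.3% of its probes exceeded background. The lowest detected signal on an array lay between 5.19 and 5.58 on the log2 scale, and a level below it is only a bound. TP53BP1 signal was 16.0% and 19.8% of shControl in sh53BP1-1 and sh53BP1-2, ATM was 53.8% in shATM-1 and 48.8% in the second ATM line, CHEK1 was 84.0% and 82.9% in shCHK1-3 and shCHK1-4 (50.1% and 49.5% of wild type), CHEK2 was 50.2% and 93.2% in shCHK2-1 and shCHK2-2, and ATR was above background in no ATR line or control array. The 9p21 genes MTAP, CDKN2A and CDKN2B, which MCF-10A cells are known to have lost, exceeded background on all 24 kinase line arrays and on 0 of the other 12. Their summed linear signal was 1325 to 2036 in the kinase lines, against 77.8 to 83.2 in the sh53BP1 lines, 67.8 to 71.9 in shControl and 74.3 to 85.8 in wild type. The libraries labelled as the 8 kinase lines therefore stand apart from the other 4 groups in a way their labels do not give. Whether a difference between them and the other groups belongs to the hairpin target or to the origin of these lines cannot be told apart. The basal epithelial markers with a probe (5 of 7 listed) were above background on all 36 arrays. The summed level of 7 luminal epithelial markers was 8077 to 11470 in the kinase lines, 18980 to 22370 in the sh53BP1 lines, 14449 to 15412 in shControl and 21686 to 23273 in wild type. Among them KRT19 was above background on 0 of 24 kinase line arrays and on all 12 others, and MUC1 had log2 signals of 4.91 to 7.07 in the kinase lines and 12.08 to 13.03 elsewhere. KRT8, KRT18 and EPCAM were above background on all 24 kinase line arrays and all 12 others. In the kinase lines KRT8 read 9.26 to 11.54, KRT18 7.42 to 8.31 and EPCAM 12.55 to 13.09. Elsewhere they read 10.88 to 12.31, 6.55 to 8.86 and 12.83 to 13.37. Of 8 fibroblast markers, LUM and DCN were above background on 3 of 3 shControl arrays, and THY1 was above background on all 24 kinase line arrays and on 0 of the other 12. The summed level of the fibroblast list was 330 to 598 in the kinase lines, 188 to 214 in the sh53BP1 lines, 850 to 895 in shControl and 203 to 230 in wild type. The part of any marker set in the results below was not tested.

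MMP1, MMP3, MMP7 and MMP10 lie in the metalloproteinase cluster of chromosome 11, at chr11:102520508-102530747 for MMP7, chr11:102770502-102780628 for MMP10, chr11:102789919-102798160 for MMP1 and chr11:102835801-102843609 for MMP3 (RefSeq annotation of GRCh38.p14). A RefSeq promoter sequence was given for 5 of the 10 members, namely MMP7, MMP10, MMP14, TIMP1 and TIMP3. The 250 bases before the transcription start of MMP10 and MMP7 are shown because these genes of the cluster moved in opposite directions. Of the 5 windows only these 2 held the letters TGANTCA, a consensus for AP-1, the Fos and Jun factor family that drives many MMP promoters. Variant AP-1 sites that depart from these letters were not searched, so a window without a match may still hold one. Both are read on the minus strand, from chr11:102780629-102780878 for MMP10 and chr11:102530748-102530997 for MMP7, and capitals mark the match to TGANTCA, which was searched on both strands.
MMP10: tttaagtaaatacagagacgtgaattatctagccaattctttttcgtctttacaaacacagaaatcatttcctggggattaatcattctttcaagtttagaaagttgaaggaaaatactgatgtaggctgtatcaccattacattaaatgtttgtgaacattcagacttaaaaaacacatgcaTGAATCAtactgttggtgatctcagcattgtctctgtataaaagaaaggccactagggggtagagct
MMP7: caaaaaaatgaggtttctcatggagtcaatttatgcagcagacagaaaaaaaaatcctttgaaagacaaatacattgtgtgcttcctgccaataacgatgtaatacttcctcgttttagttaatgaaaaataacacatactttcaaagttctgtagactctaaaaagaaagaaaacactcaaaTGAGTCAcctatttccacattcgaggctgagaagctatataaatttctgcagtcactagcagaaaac
The match was TGAATCA in MMP10 and TGAGTCA in MMP7, and in both it spanned bases 67 to 61 before the start. Among 35116 promoter windows of the same length, 2308 (6.57%) held TGANTCA and 4.20% held TGAGTCA. The letters AGGAAG, the core of the PEA3 motif bound by ETS factors, stood 2 times in the MMP7 window, at bases 169 to 164 and 145 to 140 on the opposite strand, and 1 time in that of TIMP1. They stood in 28.7% of all windows. A match describes the letters only.

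Most members differed from shControl in most lines, on arrays where most genes did. Of 90 member by line comparisons, 78 passed the test (limma's moderated test, Benjamini-Hochberg adjusted p under 0.05), against 62.9% of all gene by line comparisons. Of the 78, 41 were higher and 37 lower, where 31.7% and 31.2% of all comparisons were. By line, the members called of 9, with the share of all genes called, were 7 in shATM-1 (66.6%), 8 in shATM-3 (58.3%), 8 in shATR-3 (67.5%), 8 in shATR-4 (60.1%), 9 in shCHK1-3 (67.2%), 9 in shCHK1-4 (62.4%), 8 in shCHK2-1 (62.3%), 7 in shCHK2-2 (68.4%), 8 in sh53BP1-1 (59.6%) and 6 in sh53BP1-2 (56.2%). With wild type as the control, 76 of the 90 passed, against 59.2% of all gene by line comparisons. In the 8 kinase lines MMP1 (interstitial collagenase) and MMP14 (a membrane-bound collagenase that activates proMMP2) were higher in every line, and MMP7 (matrilysin) and TIMP2 were lower in every line. Of all tested genes, 16.9% were higher and 19.1% lower in all 8. MMP1 and MMP14 met the detection filter only in kinase lines, and MMP7 only in the other groups. MMP7 rose in both sh53BP1 lines. MMP1 and MMP10 were called lower there than in shControl but passed in neither line against wild type, and no sh53BP1 array was above background for either gene. TIMP2 was the 1 of 9 members called in the same direction in all 10 lines, against 19.7% of all tested genes. The 10 comparisons share the 3 shControl arrays.

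**Figure D1:**
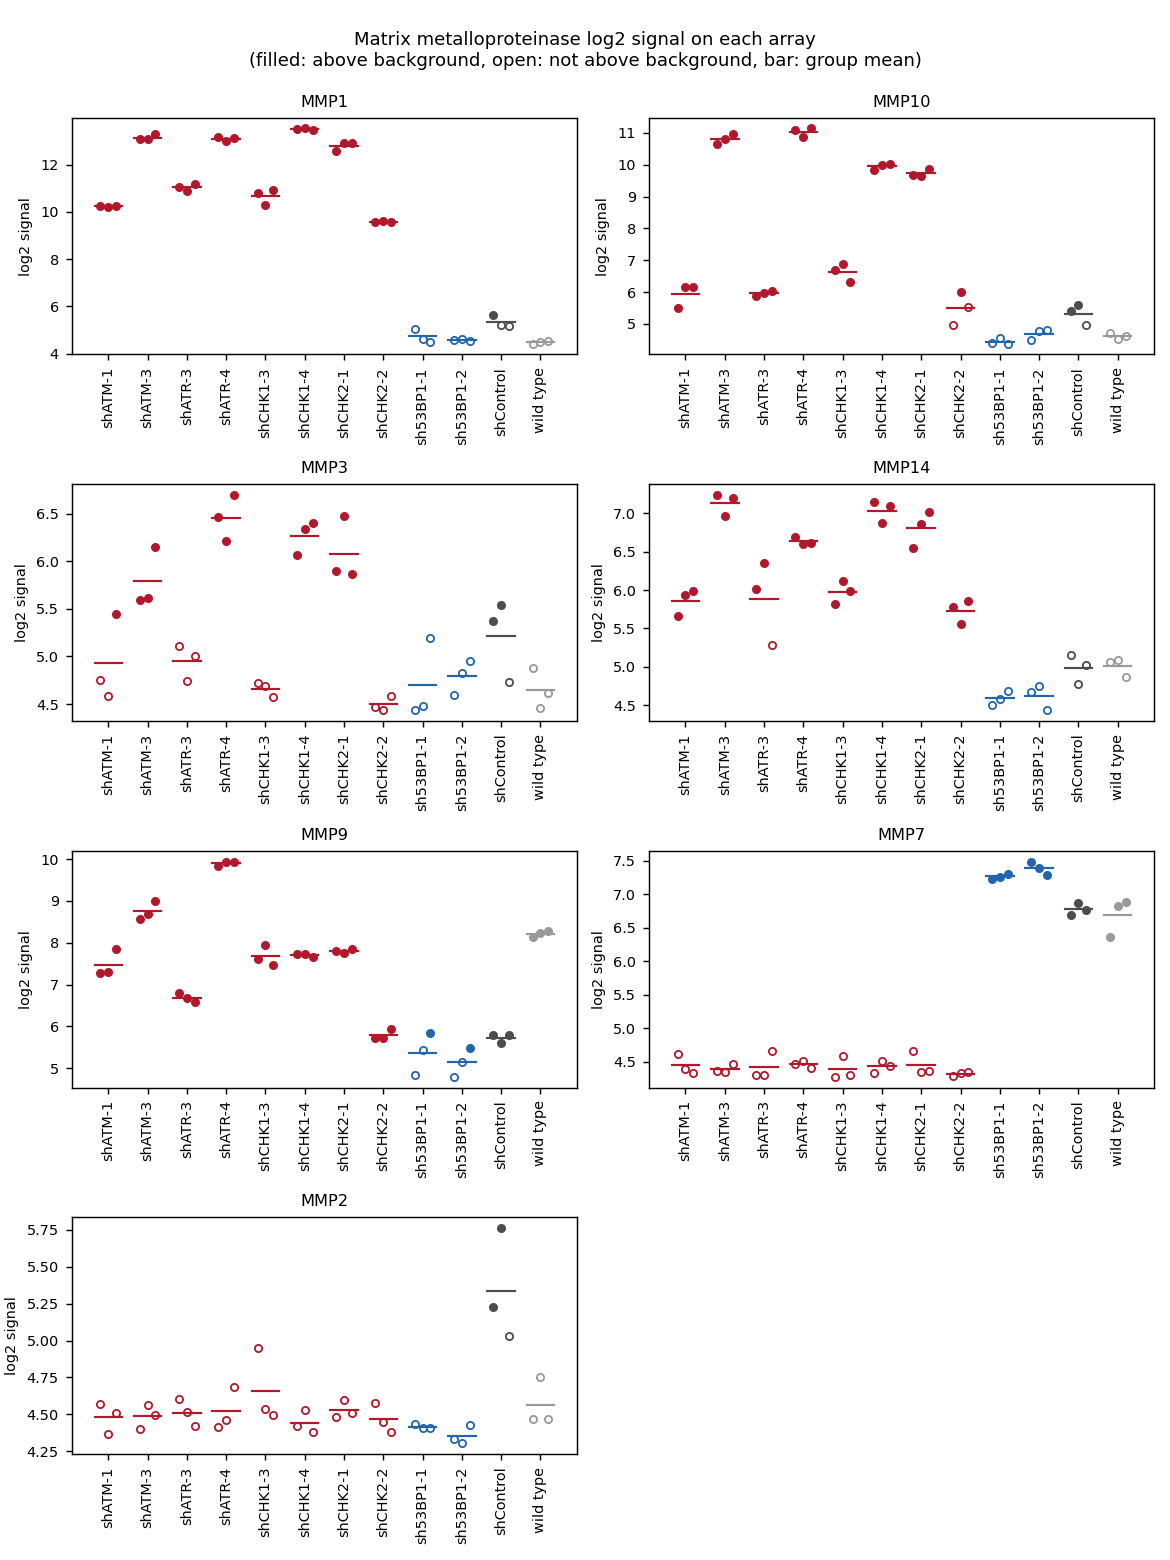
Log2 signal of 7 metalloproteinase genes on each of 36 arrays, by group, with kinase lines in red, sh53BP1 lines in blue, shControl in dark grey and wild type in light grey. Filled points are above background (detection p under 0.01), open points are not, and the bar is the mean of 3 arrays. MMP1 is above background on all 24 kinase line arrays and MMP7 on none of them.

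MMP1, which opens the triple helix of fibrillar collagens, was the member with the widest range of levels. Its log2 signal was 10.24, 10.21 and 10.23 in shATM-1 cells, 13.06, 13.08 and 13.27 in shATM-3, 11.04, 10.87 and 11.18 in shATR-3 and 13.16, 12.997 and 13.13 in shATR-4. It was 10.79, 10.30 and 10.92 in shCHK1-3, 13.51, 13.53 and 13.46 in shCHK1-4, 12.55, 12.89 and 12.93 in shCHK2-1 and 9.59, 9.60 and 9.57 in shCHK2-2. In the other groups it was 5.06, 4.63 and 4.51 in sh53BP1-1, 4.59, 4.60 and 4.52 in sh53BP1-2, 5.63, 5.19 and 5.17 in shControl and 4.42, 4.49 and 4.54 in wild type. All 24 kinase line arrays lay above every other array, and among those others only 1 shControl array was above background. The fitted difference from shControl was between 4.25 (SE 0.14, adjusted p = 6.42e-22) in shCHK2-2 and 8.16 (SE 0.14, adjusted p = 7.87e-29) in shCHK1-4. Against wild type, where MMP1 was above background on 0 of 3 arrays, it was at least 20.1-fold higher in shCHK2-2 and at least 302-fold higher in shCHK1-4. MMP1 was also called lower in sh53BP1-1 and sh53BP1-2 than in shControl (adjusted p = 0.000418 and 2.4e-05), but 0 of 6 arrays were above background in these lines and 1 of 3 in shControl, so no size is given. Neither line passed against wild type (adjusted p = 0.131 and 0.635), and the sh53BP1-1 call ended with the deposited log2 values (adjusted p = 0.0801). Of the 11 pairs of neighbouring groups in the order of means, 4 overlapped.

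MMP10 (stromelysin-2) and MMP3 (stromelysin-1) cut proteoglycans, laminin and fibronectin and can activate other proMMPs. The log2 signal of MMP10 was 5.50, 6.16 and 6.16 in shATM-1 cells, 10.66, 10.80 and 10.96 in shATM-3, 5.87, 5.97 and 6.03 in shATR-3 and 11.09, 10.88 and 11.14 in shATR-4. It was 6.70, 6.87 and 6.32 in shCHK1-3, 9.82, 9.99 and 10.03 in shCHK1-4, 9.69, 9.65 and 9.87 in shCHK2-1 and 4.97, 5.998 and 5.52 in shCHK2-2. The sh53BP1 lines had 4.40, 4.54 and 4.38 in sh53BP1-1 and 4.48, 4.77 and 4.81 in sh53BP1-2, with 0 of 6 arrays above background. The controls had 5.40, 5.58 and 4.97 in shControl, with 2 of 3 arrays above background, and 4.71, 4.51 and 4.61 in wild type, with 0 of 3. The kinase lines fell into separate ranges, with shATM-3, shATR-4, shCHK1-4 and shCHK2-1 at or above 9.65 and the others at or below 6.87. Against shControl, the fitted rise of MMP10 was 52.7-fold in shATR-4 (log2 difference 5.72, adjusted p = 1.33e-21) and 45-fold in shATM-3. It was 1.56-fold in shATR-3 and 1.54-fold in shATM-1, where the arrays overlapped those of shControl. Since only 2 of 3 shControl arrays were above background, these folds are fitted values and not bounds. The shATM-1 call ended without shControl replicate 3 (log2 difference 0.45, adjusted p = 0.0527). It was called lower in sh53BP1-1 (adjusted p = 0.000205) and sh53BP1-2 (adjusted p = 0.0056) than in shControl, where the background allows no size, and passed in neither against wild type (adjusted p = 0.463 and 0.766). In shCHK2-2 MMP10 was above background on 1 of 3 arrays and did not pass (log2 difference 0.18, adjusted p = 0.406), but did without shCHK2-2 replicate 1 (0.44, adjusted p = 0.0364).

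MMP3 was above background on all 3 arrays only in shATM-3, shATR-4, shCHK1-4 and shCHK2-1. The signal on the log2 scale was 5.60, 5.62 and 6.16 in shATM-3, 6.46, 6.22 and 6.70 in shATR-4, 6.07, 6.34 and 6.400 in shCHK1-4 and 5.90, 6.47 and 5.87 in shCHK2-1, against 5.37, 5.54 and 4.73 in shControl, where 2 of 3 arrays were above background. In shATM-1 MMP3 read 4.76, 4.59 and 5.45 and in shATR-3 5.12, 4.74 and 5.01, with 1 of 3 and 0 of 3 arrays above background, and it passed in neither. Every array of the 4 lines with full detection lay above the shControl arrays. The fitted rise of MMP3 was 2.37-fold in shATR-4 (adjusted p = 1.47e-05) and 1.49-fold in shATM-3 (adjusted p = 0.0257). With 2 of 3 shControl arrays above background, these folds are not bounds. MMP3 was also called lower in shCHK1-3 (adjusted p = 0.0291), shCHK2-2 (adjusted p = 0.00516) and sh53BP1-1 (adjusted p = 0.0474) than in shControl. No array of these 3 lines was above background, so no size is given, and none of them passed against wild type (adjusted p = 0.969, 0.546 and 0.861). The shATM-3 call ended without shControl replicate 3 (adjusted p = 0.22), without shATM-3 replicate 3 (adjusted p = 0.167) and also on the authors' deposited log2 scale (adjusted p = 0.0538). The shCHK1-3 call ended without shControl replicate 1 or 2, without shCHK1-3 replicate 2 or 3 (adjusted p = 0.0508 to 0.163) and also on the authors' deposited log2 scale (adjusted p = 0.0702). The call in sh53BP1-1 ended without shControl replicate 1, shControl replicate 2, sh53BP1-1 replicate 1 or sh53BP1-1 replicate 2 (adjusted p = 0.145 to 0.231). MMP3 was called lower in shATM-1 without shControl replicate 3 or shATM-1 replicate 3 (adjusted p = 0.0482 and 0.038), and in sh53BP1-2 without shControl replicate 3 (adjusted p = 0.017).

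MMP14 (membrane-type 1 MMP) was above background on 23 of 24 kinase line arrays and on 0 of the other 12. The arrays read 5.66, 5.94 and 5.99 in shATM-1 cells, 7.24, 6.97 and 7.20 in shATM-3, 6.02, 6.35 and 5.29 in shATR-3 and 6.70, 6.61 and 6.61 in shATR-4. It was 5.81, 6.12 and 5.99 in shCHK1-3, 7.14, 6.87 and 7.10 in shCHK1-4, 6.54, 6.86 and 7.02 in shCHK2-1 and 5.78, 5.56 and 5.86 in shCHK2-2. The sh53BP1 lines had 4.50, 4.58 and 4.69 in sh53BP1-1 and 4.67, 4.75 and 4.43 in sh53BP1-2. The shControl arrays read 5.16, 4.78 and 5.03 and the wild type arrays 5.07, 5.09 and 4.87. No kinase line overlapped shControl, and MMP14 was at least 3.62-fold higher in shATM-3 (adjusted p = 3.38e-12) and at least 1.37-fold higher in shCHK2-2 (adjusted p = 0.000294). In shATR-3, where 2 of 3 arrays were above background, it was called higher, and no size is given. MMP14 was called lower in sh53BP1-1 than in shControl (adjusted p = 0.044), but no array of either group was above background, and the call ended without shControl replicate 1 or 3 or sh53BP1-1 replicate 1 or 2 (adjusted p = 0.0864 to 0.166). Among the fits that left out 1 array, sh53BP1-2 passed without shControl replicate 2 (adjusted p = 0.0352), again with no array above background.

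MMP9 (gelatinase B) cuts denatured collagen and basement membrane collagen. Its log2 signal was 7.28, 7.29 and 7.85 in shATM-1 cells, 8.56, 8.69 and 9.01 in shATM-3, 6.79, 6.67 and 6.59 in shATR-3 and 9.85, 9.93 and 9.94 in shATR-4. It was 7.62, 7.96 and 7.47 in shCHK1-3, 7.72, 7.74 and 7.67 in shCHK1-4, 7.80, 7.76 and 7.84 in shCHK2-1 and 5.73, 5.71 and 5.94 in shCHK2-2. The other groups had 4.85, 5.43 and 5.85 in sh53BP1-1, 4.80, 5.15 and 5.49 in sh53BP1-2, 5.80, 5.60 and 5.80 in shControl and 8.14, 8.23 and 8.29 in wild type. The wild type arrays lay above every array except those of shATM-3 and shATR-4, while shControl lay among the lowest groups. Against shControl MMP9 rose in 7 of 8 kinase lines, by up to 18.1-fold in shATR-4 (log2 difference 4.17, SE 0.18, adjusted p = 1.18e-18), and did not pass in shCHK2-2 (0.06, adjusted p = 0.77). Against wild type it rose in 2 kinase lines, shATR-4 (1.69, adjusted p = 2.29e-09) and shATM-3 (0.54, adjusted p = 0.0121), and fell in the other 6, between -0.42 (adjusted p = 0.0442) in shCHK2-1 and -2.43 in shCHK2-2. In 5 lines (shATM-1, shATR-3, shCHK1-3, shCHK1-4, shCHK2-1) the call was therefore higher against shControl and lower against wild type. In the sh53BP1 lines 1 of 3 arrays each was above background, and sh53BP1-2 was called lower than shControl (-0.59, adjusted p = 0.00649), which ended without sh53BP1-2 replicate 1 (-0.41, adjusted p = 0.0714) and also on the authors' deposited log2 scale (adjusted p = 0.0796), while sh53BP1-1 was called lower without its replicate 3 (-0.59, adjusted p = 0.0058).

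MMP7, a small epithelial MMP that lacks the hemopexin domain, ran opposite to MMP1. Its log2 signal was at most 4.66 on the 24 kinase line arrays, 0 of which were above background. It was 7.23, 7.26 and 7.31 in sh53BP1-1, 7.49, 7.40 and 7.29 in sh53BP1-2, 6.69, 6.87 and 6.77 in shControl and 6.36, 6.82 and 6.88 in wild type, all above background. Every array of the sh53BP1 lines lay above the shControl and wild type arrays, and every kinase line array lay below them. In the kinase lines MMP7 was lower than in shControl by at least 2.54-fold (shCHK2-2) to at least 2.86-fold (shATM-3), with adjusted p between 1.36e-17 and 7.21e-17. In sh53BP1-1 it rose 1.4-fold over shControl (adjusted p = 0.000644) and in sh53BP1-2 1.53-fold (adjusted p = 4.68e-05). The second MMP7 probe was also above background on 0 of 24 kinase line arrays, but its rise in sh53BP1-1 did not pass (log2 difference 0.15, adjusted p = 0.416).

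MMP2 (gelatinase A), which stromal cells make in most tissues, was above background only in shControl, on 2 of 3 arrays. The shControl arrays read 5.23, 5.76 and 5.03, and the other 33 arrays lay between 4.30 and 4.95. All 3 shControl arrays lay above the others. On the same shControl arrays the fibroblast markers LUM and DCN reached 7.95 and 8.96, while COL3A1, PDGFRA and PDGFRB were above background on none of the 36 arrays.

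**Figure D2:**
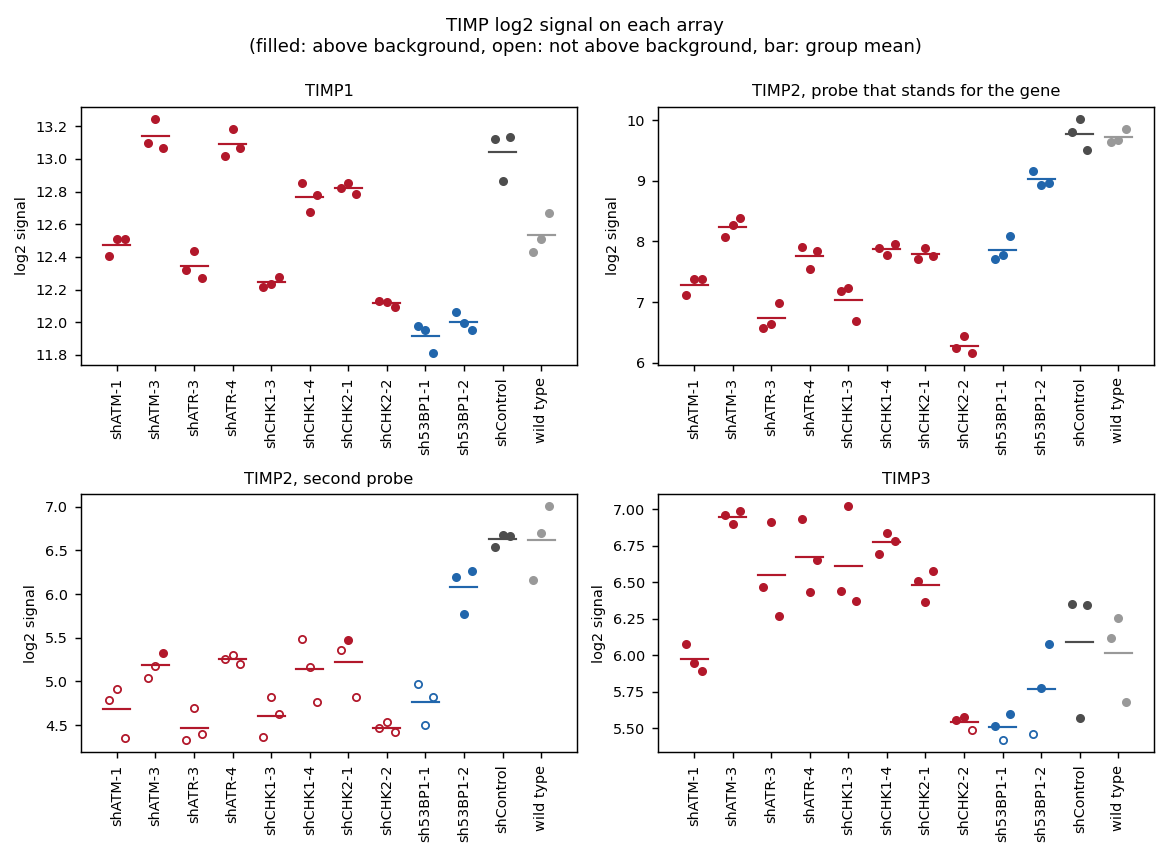
Log2 signal of TIMP1, of both TIMP2 probes and of TIMP3 on each of 36 arrays, by group, with kinase lines in red, sh53BP1 lines in blue, shControl in dark grey and wild type in light grey. Filled points are above background, open points are not, and the bar is the mean of 3 arrays. The TIMP2 means are highest in shControl and wild type with both probes.

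TIMP2, which inhibits active MMPs and also docks proMMP2 on MMP14, was lower than in shControl in every hairpin line. Its log2 signal was 7.11, 7.39 and 7.37 in shATM-1 cells, 8.07, 8.28 and 8.38 in shATM-3, 6.58, 6.64 and 6.99 in shATR-3 and 7.91, 7.55 and 7.84 in shATR-4. It was 7.18, 7.23 and 6.69 in shCHK1-3, 7.90, 7.78 and 7.97 in shCHK1-4, 7.71, 7.89 and 7.75 in shCHK2-1 and 6.25, 6.44 and 6.16 in shCHK2-2. It was 7.71, 7.78 and 8.08 in sh53BP1-1, 9.16, 8.94 and 8.97 in sh53BP1-2, 9.79, 10.02 and 9.51 in shControl and 9.64, 9.67 and 9.84 in wild type. No hairpin line overlapped shControl or wild type. The fall was 11.2-fold in shCHK2-2 (log2 difference -3.49, 95% confidence interval -3.78 to -3.20, adjusted p = 3.33e-19) and 1.68-fold in sh53BP1-2 (-0.75, -1.05 to -0.46, adjusted p = 5.41e-05), which were the ends of the range over the 10 lines. The second TIMP2 probe read 6.20, 5.77 and 6.27 in sh53BP1-2, 6.54, 6.67 and 6.67 in shControl and 6.16, 6.70 and 7.01 in wild type. It was above background on 2 of 24 kinase line arrays and on 0 of 3 sh53BP1-1 arrays.

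TIMP1, a secreted inhibitor that also binds proMMP9, was above background on all 36 arrays. Its mean log2 signal was 13.14 ± 0.09 in shATM-3, 13.09 ± 0.08 in shATR-4, 12.77 ± 0.09 in shCHK1-4 and 12.82 ± 0.03 in shCHK2-1 (SD, n = 3 each). It was 12.48 ± 0.06 in shATM-1, 12.34 ± 0.08 in shATR-3, 12.24 ± 0.03 in shCHK1-3 and 12.12 ± 0.02 in shCHK2-2. It was 11.91 ± 0.09 in sh53BP1-1, 12.004 ± 0.05 in sh53BP1-2, 13.04 ± 0.15 in shControl and 12.54 ± 0.12 in wild type. TIMP1 fell against shControl in 6 of 8 kinase lines and in both sh53BP1 lines, by up to 2.18-fold in sh53BP1-1 (adjusted p = 6.98e-13). In shATM-3 and shATR-4 it did not pass, with log2 differences of 0.10 (95% confidence interval -0.07 to 0.26) and 0.05 (-0.12 to 0.22). Against wild type TIMP1 rose in shATM-3, shATR-4, shCHK1-4 and shCHK2-1 and fell in shATR-3, shCHK1-3, shCHK2-2 and both sh53BP1 lines, so shCHK1-4 and shCHK2-1 had opposite calls against the 2 controls. The shCHK2-1 call against shControl (-0.22, adjusted p = 0.0203) ended without shControl replicate 1, shControl replicate 3 or shCHK2-1 replicate 3 (adjusted p = 0.0608 to 0.0986).

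TIMP3, the inhibitor that stays bound to the matrix, differed by less than 1 log2 unit from shControl in every line. The log2 signals were 6.96, 6.90 and 6.99 in shATM-3 and 5.56, 5.57 and 5.49 in shCHK2-2, the ends of the order among the kinase lines, and 6.35, 5.57 and 6.34 in shControl. It rose in 5 kinase lines, by 1.82-fold in shATM-3 (adjusted p = 0.00027). It fell in shCHK2-2 (1.46-fold, adjusted p = 0.0123) and sh53BP1-1 (1.49-fold, adjusted p = 0.00994). In each of these lines with a fall only 2 of 3 arrays were above background, near the lowest detected signal, so the 2 folds are fitted values. The rises in shATR-3, shATR-4, shCHK1-3 and shCHK1-4 ended without shControl replicate 2, which was the lowest of its group (log2 differences 0.20 to 0.43, adjusted p = 0.0515 to 0.348). Those in shATR-3, shATR-4 and shCHK1-3 also ended without shATR-3 replicate 2, shATR-4 replicate 1 or shCHK1-3 replicate 2 of their own line. The falls in shCHK2-2 and sh53BP1-1 ended without shControl replicate 1 or without shControl replicate 3 (adjusted p = 0.0679 to 0.0834). TIMP3 also passed in shCHK2-1 without shControl replicate 1 or 3 (higher, adjusted p = 0.0315 and 0.0335) and in sh53BP1-2 without shControl replicate 2 (lower, adjusted p = 0.0107).

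**Figure D3:**
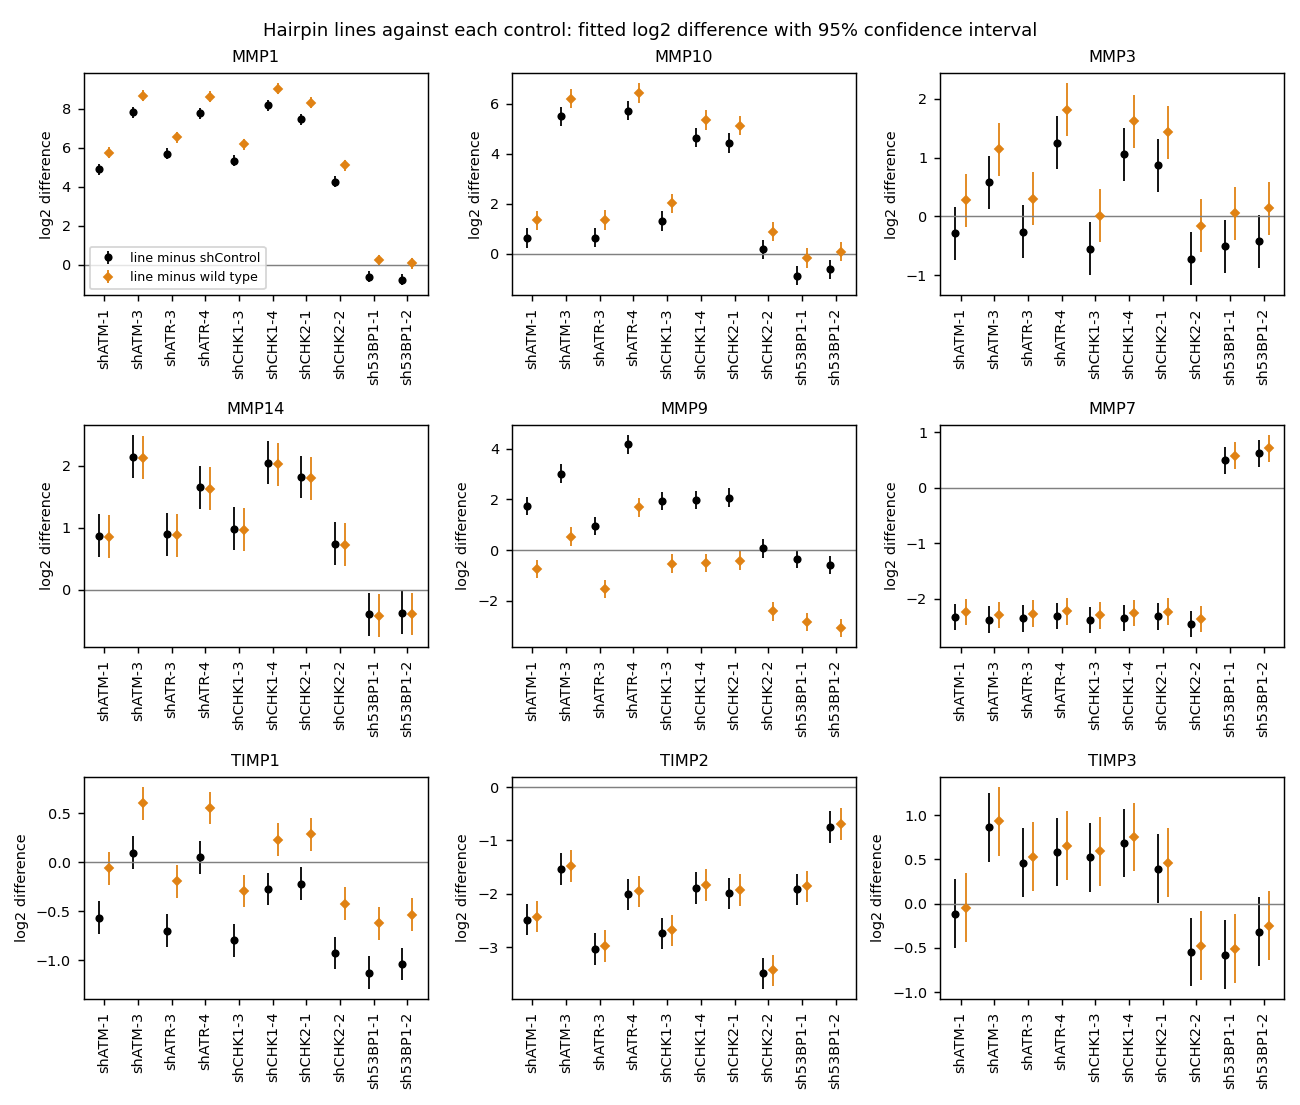
Fitted log2 difference of each hairpin line from shControl (black circles) and from wild type (orange diamonds) for the 9 tested members, with 95% confidence intervals. MMP1, MMP14, MMP7 and TIMP2 keep their sign in the 8 kinase lines against both controls, while MMP9 lies above 0 against shControl and below 0 against wild type in 6 of the 8. Where no array of a group is above background the point is a fitted value, and the data give at most a bound.

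A member was called for a target where both of its hairpins passed with the same sign against shControl. For ATM 6 of 9 members were called (MMP1, MMP9, MMP10 and MMP14 higher, MMP7 and TIMP2 lower), against 45.2% of all genes. For ATR 7 were called, the same 6 with TIMP3 higher, against 47.7% of all genes. For CHK1 8 were called, those 7 with TIMP1 lower, against 51.1%. For CHK2 5 were called (MMP1 and MMP14 higher, MMP7, TIMP1 and TIMP2 lower), against 48.1%. Some of these calls depended on the control. Against wild type, MMP9 was called lower in shATM-1, shATR-3, shCHK1-3 and shCHK1-4, and TIMP1 was called higher in shCHK1-4 and shCHK2-1. The TIMP3 calls for ATR and CHK1 ended without shControl replicate 2. The MMP10 call for ATM ended without shControl replicate 3 (adjusted p = 0.0527 in shATM-1). The TIMP1 call for CHK2 ended without shControl replicate 1 or 3 or shCHK2-1 replicate 3. With only the compared groups fitted, the TIMP1 calls for CHK1 and CHK2 ended (adjusted p = 0.0616 in shCHK1-4 and 0.115 in shCHK2-1). For 53BP1 5 were called (MMP7 higher, MMP1, MMP10, TIMP1 and TIMP2 lower), against 49.1%. MMP1 and MMP10 were above background on no sh53BP1 array and passed in neither line against wild type. The second MMP7 probe did not pass in sh53BP1-1 (adjusted p = 0.416). The median log2 difference of the 9 members lay between -0.59 in sh53BP1-2 and 1.25 in shATR-4, while that of all genes lay within 0.04 of 0 in every line.

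The 2 controls themselves differed. Comparing shControl with wild type, which asks how far a scrambled hairpin line departs from the parent cells, 4 of 9 members passed, against 30.5% of all genes. MMP9 fell (log2 difference -2.49, SE 0.18, adjusted p = 2.24e-12) and TIMP1 rose 1.42-fold (adjusted p = 1.46e-05). MMP1 and MMP10 were called higher, with 1 of 3 and 2 of 3 shControl arrays above background. Wild type had 0 of 3 for both genes, and the background allows no size. MMP3, on 2 of 3 shControl arrays and 0 of 3 of wild type, did not pass (adjusted p = 0.0535) but was called higher without wild type replicate 1 (adjusted p = 0.0437) or shControl replicate 3 (adjusted p = 0.00897). MMP14 was above background in neither. MMP7, TIMP2 and TIMP3 differed by at most 0.09 with intervals that included 0, the widest being -0.32 to 0.46 for TIMP3. LUM and DCN, above background on 3 of 3 shControl arrays, were above background on 0 of 3 and 2 of 3 wild type arrays, and their part in these differences was not tested.

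Set against the sh53BP1 lines, which are hairpin lines too and need neither control, the kinase lines differed for all 9 tested members, where 75.4% of all genes passed. MMP1, MMP3, MMP10 and MMP14 met the detection filter only in kinase lines, and MMP7 only in the other groups. Their entry rested on the side where they were high, so the count of 9 is partly set by the filter. Of the members 7 rose and 2 fell, against 38.2% and 37.2% of all genes. MMP1 was at least 77.1-fold higher (adjusted p = 1.25e-34). With the sh53BP1 lines set at the lowest detected signal, MMP10 was 6.54-fold higher (22 of 24 arrays above background) and MMP14 1.87-fold (23 of 24). Kinase line arrays not above background were taken as measured, so these 2 values are not strict bounds. MMP9 rose 5.52-fold, with 24 of 24 kinase line arrays and 2 of 6 sh53BP1 arrays above background. TIMP1 (0.67) and TIMP3 (0.80) rose by less than 1 log2 unit, TIMP3 with 23 of 24 kinase line arrays and 4 of 6 sh53BP1 arrays above background. For MMP9 the arrays of shCHK2-2 (5.71 to 5.94) overlapped those of sh53BP1-1 (4.85 to 5.85). For TIMP3 shATM-1 and shCHK2-2 overlapped sh53BP1-2, whose mean (5.77) was above that of shCHK2-2 (5.54). MMP3 was called higher, with 13 of 24 arrays above background against 0 of 6, but the background allows no size, and the means of shCHK1-3 (4.66) and shCHK2-2 (4.50) were below those of sh53BP1-1 (4.70) and sh53BP1-2 (4.79). MMP7 was at least 3.96-fold lower and TIMP2 fell 2.09-fold, although sh53BP1-1 overlapped the kinase lines for TIMP2. The TIMP2 mean of sh53BP1-1 (7.86) was below those of shATM-3 (8.24) and shCHK1-4 (7.88), and above those of the other kinase lines. That of sh53BP1-2 (9.02) was above all of them. Each target on its own gave the same 9 calls in the same directions, where 69.6% (ATM), 68.3% (ATR), 69.4% (CHK1) and 69.5% (CHK2) of all genes passed. MMP1 was at least 73.4-fold higher in the ATM lines, 95.5-fold in the ATR lines, 96.9-fold in the CHK1 lines and 52.1-fold in the CHK2 lines. The same split of lines is that of MTAP, CDKN2A and CDKN2B, so target and origin cannot be told apart here.

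**Figure D4:**
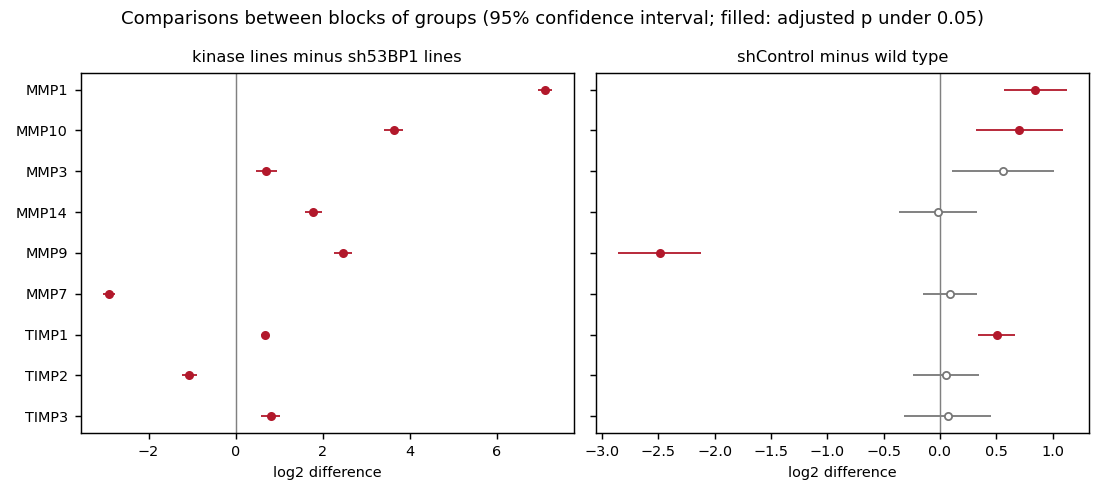
Fitted log2 difference with 95% confidence interval for the 9 tested members, for the 8 kinase lines minus the 2 sh53BP1 lines (left) and for shControl minus wild type (right). Filled red points have an adjusted p under 0.05 and open grey points do not. All 9 members pass on the left and 4 on the right.

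The 2 hairpins of a kinase often differed from each other for these genes, although they share the target. Of 45 member by target comparisons 30 passed, against 34.0% over all genes, and 29 of the 30 fell in the 4 kinase targets. MMP3 met the detection filter only in shATM-3, shATR-4, shCHK1-4 and shCHK2-1, the line of each kinase pair where it was higher. Its 4 calls rested on the side that let it into the test, so these counts are partly set by the filter. For ATM 8 of 9 members were lower in shATM-1 than in shATM-3 (24.4% of all genes were), for ATR 7 were lower in shATR-3 than in shATR-4 (24.1%), and for CHK1 6 were lower in shCHK1-3 than in shCHK1-4 (20.3%). For CHK2 8 were higher in shCHK2-1 than in shCHK2-2 (26.2%). For 53BP1 TIMP2 alone passed, lower in sh53BP1-1 (log2 difference -1.17, adjusted p = 1.1e-06), where 5.03% of all genes were lower. The size was largest for MMP10, which was lower by 29.2-fold in shATM-1 than in shATM-3 (adjusted p = 2.99e-18), by 33.9-fold in shATR-3 than in shATR-4 and by 10.0-fold in shCHK1-3 than in shCHK1-4. In shCHK2-1 it was 18.9-fold higher than in shCHK2-2, where 1 of 3 arrays was above background. MMP1 differed by -2.91, -2.07, -2.83 and 3.21 on the log2 scale in the same 4 comparisons (ATM, ATR, CHK1, CHK2). MMP9 differed for ATM (-1.28), ATR (-3.22) and CHK2 (2.01) and not for CHK1 (-0.03, 95% confidence interval -0.40 to 0.34). MMP7 was not above background in either line of any kinase, so its kinase pairs cannot be compared. In every kinase pair TIMP1 and TIMP2 were higher in the line with the higher MMP1, MMP3, MMP10 and MMP14. The signal of the target itself was compared in the 3 pairs where it was above background. CHEK2 was lower in shCHK2-1, the CHK2 line with the higher MMP1, at 50.2% of shControl against 93.2% in the other line (log2 difference -0.89, adjusted p = 0.000359). ATM in shATM-1 against shATM-3 (0.14, adjusted p = 0.5) and CHEK1 in shCHK1-3 against shCHK1-4 (0.02, adjusted p = 0.912) did not pass. The part of target signal in these differences was not tested.

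**Figure D5:**
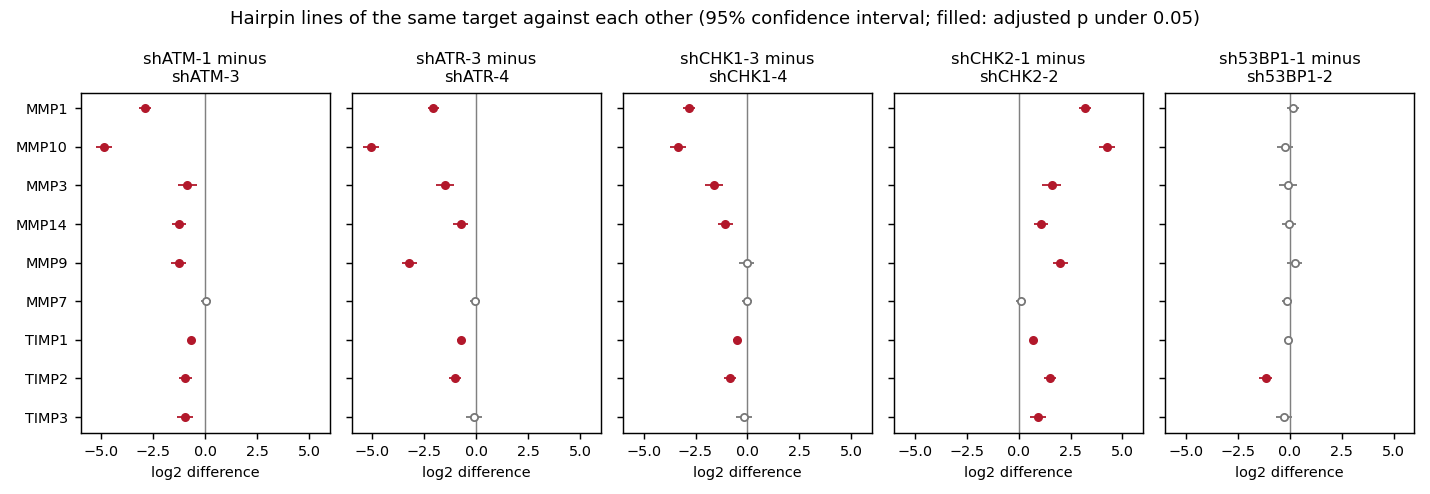
Fitted log2 difference between the 2 hairpin lines of each target (first-numbered minus second) for the 9 tested members, with 95% confidence intervals. Filled red points have an adjusted p under 0.05 and open grey points do not. The differences that pass lie below 0 for ATM, ATR and CHK1 and above 0 for CHK2, and only TIMP2 passes for 53BP1.

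Genes that act on or with MMPs were counted in the same contrasts. In the kinase lines minus the sh53BP1 lines, 9 of 9 tested cytokines and growth factors that can induce MMPs rose, with a median log2 difference of 2.63 against 0.003 over all genes, where 38.2% of all genes rose and 37.2% fell. Against shControl these inducers were mixed in the kinase lines, with medians between -0.16 and 0.65 and with 3 higher and 2 lower in all 8 lines (16.9% and 19.1% of all genes were). In sh53BP1-1 and sh53BP1-2, 9 and 8 of the 9 were lower than in shControl, with medians of -2.89 and -2.56. Between the kinase and sh53BP1 lines IL1B was at least 301-fold higher and IL6 at least 6.92-fold higher, while IL1A rose by 6.72 and CXCL8 by 4.79 on the log2 scale. In the kinase lines minus the sh53BP1 lines, 6 of 10 activators, docking proteins and other inhibitors rose and 3 fell. PLAU, the urokinase that makes plasmin, an activator of proMMPs, rose by 4.40, and the plasminogen activator PLAT was at least 6.73-fold higher. TFPI2, a secreted serine protease inhibitor that blocks plasmin, was at least 55.8-fold higher, and the proprotein convertase PCSK5 was lower (log2 difference -2.64). Of 13 AP-1 and ETS factors 9 rose and 3 fell, with FOSB at 2.42, FOS at 0.96 and the epithelial ETS factor ELF3 at -1.68. Of 9 matrix and surface substrates 8 rose and 1 fell, among them the anchoring fibril collagen COL7A1 (3.12) and the laminin chain LAMB3 (1.56). Of 9 ADAM and ADAMTS proteases 4 rose and 2 fell, a share near that of all genes for the rises, with ADAM19 at 3.54 and ADAMTS1 at least 2.93-fold higher. Of the 17 remaining genes on the list of MMPs and TIMP4, 4 were tested, of which MMP16 was called higher (12 of 24 arrays above background against 0 of 6) and MMP23B fell (-0.21). MMP28 was above background on all 36 arrays.

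The same lists were counted where the hairpins of a kinase differed. Among the 10 activators, docking proteins and other inhibitors, 8 were lower and 1 higher in shATM-1 than in shATM-3, 9 lower and 0 higher in shATR-3 than in shATR-4, 7 lower and 0 higher in shCHK1-3 than in shCHK1-4, and 9 higher and 0 lower in shCHK2-1 than in shCHK2-2. Of all genes 24.4%, 24.1% and 20.3% were lower in the first 3 pairs and 26.2% higher in the CHK2 pair. LCN2, a lipocalin that forms a complex with MMP9, differed by -4.66, -5.00, -2.15 and 2.67 in these pairs. Among the 9 inducers 6 were lower and 0 higher in the ATM pair, 7 lower and 1 higher in the ATR pair, 7 lower and 0 higher in the CHK1 pair, and 5 higher and 1 lower in the CHK2 pair. HBEGF, a ligand of the EGF receptor, differed by -1.30, -2.14, -1.86 and 1.14. Between shControl and wild type 6 of 9 inducers rose and 1 fell, with IL6 at 4.32 and CXCL8 at 3.98, and 5 of 10 activators, docking proteins and other inhibitors rose and 1 fell, with LCN2 at 3.75 and TFPI2 at 3.05, where 30.5% of all genes passed.

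Over the 12 group means, the genes whose pattern was most like MMP1 were TAGLN3 (Pearson r = 0.995) and RNASE7 (0.994), and those most like MMP10 were LAPTM5 and TFPT (0.982 each). For MMP9 they were CNTROB (0.933) and NOTCH1 (0.930), and for TIMP2 PLOD1 (0.975) and MSRB2 (0.970). Across members, the 12 group means of MMP1 and MMP7 had r = -0.927. MMP7 was above background in no kinase line and MMP1 on only 1 array outside them, so this r reflects the split between these blocks. The points of these correlations share arrays and normalization, and the kinase lines make up 8 of the 12, so they describe these groups only.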

How the data were processed

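Illumina BeadChip signals of 36 arrays, 12 groups of 3, were analysed. The deposited signal intensity per probe was neither normalized nor background subtracted by the authors, as its values show. Beside it stands a deposited detection p-value for the same probe and array. The deposited series values are on a log2 scale and matched quantile-normalized log2 signals without background correction. The scanner, export software and slide of each array are not given in the sources used here.

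Columns were matched to samples by the labels, with 0 columns lacking a sample, and 36 of 36 arrays matched their own deposited column. No arrays were identical (highest correlation 0.996). Signals were processed with neqc of limma 3.58.1 (offset 16) in R 4.3.3. Probes with a detection p under 0.01 on all 3 arrays of a group were kept. Each gene was read from its probe with the highest mean, giving 11048 genes from 30113 probes with 1 named gene, 8 with several and 17110 with none, and 0 symbols were updated. A limma fit with 12 group means used all 36 arrays, with Benjamini-Hochberg adjustment within each contrast over all genes and a threshold of 0.05. Bounds set a group with no array above background at the lowest detected signal of each array. The other group was taken as measured, so a bound is strict only where all of its arrays were above background. The fit was tested on simulated data.

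Members, gene lists, comparisons and alternatives were chosen with earlier results of these data known. All 10 members are named, from each other list at most 4 genes with the largest called differences in a contrast, and for 4 members the 2 genes with the most similar group means. MMP28 and the fibroblast markers were named after their values were seen. Replicate numbers showed no pairing on average: the mean residual correlation between groups was -0.000629 for equal and 0.000385 for unequal numbers. Over single pairs of groups it ran from -0.137 to 0.239 for equal numbers, so pairing within some groups is not excluded. Alternatives were other normalizations, filters, probes, controls and fits, a replicate block and leaving out each array. Figures were drawn with matplotlib. Promoter sequences came from RefSeq (GRCh38.p14).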

Additional observations from a re-analysis of the deposited data

Results flagged for a closer look

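The 2 hairpins of a target gave different levels of the same member in 30 comparisons, by the test of the difference itself. The 4 for MMP3 rested on the line through which it met the detection filter. In shATM-1 minus shATM-3 the log2 differences were MMP1 -2.91, MMP3 -0.86, MMP9 -1.28, MMP10 -4.87, MMP14 -1.27, TIMP1 -0.66, TIMP2 -0.95 and TIMP3 -0.98. In shATR-3 minus shATR-4 they were MMP1 -2.07, MMP3 -1.51, MMP9 -3.22, MMP10 -5.08, MMP14 -0.75, TIMP1 -0.75 and TIMP2 -1.03. For shCHK1-3 minus shCHK1-4 they came to MMP1 -2.83, MMP3 -1.61, MMP10 -3.32, MMP14 -1.06, TIMP1 -0.52 and TIMP2 -0.85. In shCHK2-1 minus shCHK2-2 the values were MMP1 3.21, MMP3 1.59, MMP9 2.01, MMP10 4.24, MMP14 1.07, TIMP1 0.70, TIMP2 1.501 and TIMP3 0.94, and in sh53BP1-1 minus sh53BP1-2 TIMP2 -1.17. MMP2, which entered no test, was above background on 2 of 3 shControl arrays and on 0 of 3 wild type arrays, with a mean log2 signal of 5.34 in shControl. MMP3 was above background in only 1 line of the ATR, CHK1 and CHK2 pairs, and there it was at least 2.18-fold lower in shATR-3, at least 1.89-fold lower in shCHK1-3 and at least 1.57-fold higher in shCHK2-1 than in its partner.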

How the results depend on the processing

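The 4 counts of calls stayed within 1.5 times their value under every alternative run, and leaving out 1 array gave 73 to 79 calls against shControl, 4 to 5 for shControl minus wild type, 9 for kinase minus sh53BP1 lines and 30 between hairpins. With the replicate block they were 77, 4, 9 and 30. The block ended 1 call, MMP14 in sh53BP1-1. With wild type in place of shControl, 16 of 90 values changed sign, 3 of them (MMP3 in shATM-1, shATR-3 and sh53BP1-2) past the threshold in neither setting, and the cause was not tested. The log2 differences of the other 13 were, for MMP9, shATM-1 -0.75, shATR-3 -1.53, shCHK1-3 -0.54, shCHK1-4 -0.51, shCHK2-1 -0.42 and shCHK2-2 -2.43; for MMP3, shCHK1-3 0.011 and sh53BP1-1 0.051; for TIMP1, shCHK1-4 0.23 and shCHK2-1 0.28; for MMP1, sh53BP1-1 0.25 and sh53BP1-2 0.086; and for MMP10, sh53BP1-2 0.076. Leaving out 1 array, over 1134 values, ended 30 calls, made 11 and reversed 0. Values past the threshold in neither setting changed sign 31 times, 28 of them with 1 array left out. The deposited log2 values, without background correction, gave a median of 0.522 of the 121 called differences, 75 were smaller by over 1.5 times, and 6 calls ended (MMP3 in shATM-3, shCHK1-3 and sh53BP1-1, MMP1 and MMP14 in sh53BP1-1 and MMP9 in sh53BP1-2). Fitted without the kinase lines, the sh53BP1 comparisons lost MMP3 in sh53BP1-1 (adjusted p = 0.0746) and gained MMP14 in sh53BP1-2 (adjusted p = 0.0182). With only the compared groups fitted, 5 calls against shControl ended (adjusted p = 0.0616 to 0.128). They were TIMP3 in shATR-3 and shCHK1-3, TIMP1 in shCHK1-4 and shCHK2-1, and MMP3 in sh53BP1-1. That setting made 1 call, MMP14 lower in sh53BP1-2 (adjusted p = 0.0425). MMP2 was above background on 2, MMP7 on 12, MMP3 on 15, MMP14 on 23, MMP10 on 24 and MMP1 on 25 of 36 arrays. Their fold changes are at most bounds where a group had no array above background, and fitted values where it had only some.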
